A study of Mus musculus with 20 samples.

Results

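Immortalized mouse embryo fibroblasts (iMEFs) were followed on Affymetrix arrays for 96 h after a pulse of 4-hydroxytamoxifen (4-HT), and the data described here are the 10 iMEF arrays of the 20 in the series, chosen by their cell type label. The cells came from E14.5 embryos, carried homozygous Er-cre (Er-cre+/+) and either the floxed (Ubf fl/fl) or the wild-type (Ubf wt/wt) gene for the ribosomal transcription factor UBF, and were immortalized by transfection of the SV40 T/t antigens. The pulse, given to wild-type cells too, was 50 nM 4-HT for 4 h, and whether the 0 h cells had received it is not given in the sources used here. RNA was taken at 0, 24, 48, 72 and 96 h post 4-HT (pHT), and every combination of line and time has 1 array. The comparison sets the 6 arrays at 48, 72 and 96 h (late) against the 4 arrays at 0 and 24 h (early), with genotype as a block, and asks which genes moved with time in both lines. Per the study, excision of the floxed exons was complete by the second of these times, so the early floxed samples hold cells before and after deletion. Time since plating, the 4-HT pulse and Cre activity cannot be told apart here, because no line was followed without the pulse. Each genotype is 1 line, so p-values measure the scatter between harvest times of 2 lines and not that between independent cultures.

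All values are log2 levels after RMA (the authors' normalization across arrays), and a change is the mean late minus the mean early log2 level. A gene was kept when its level exceeded the 40th percentile of the array, taken across every probe set, on at least 4 of the 10 arrays, which left 14331 genes. A gene was called at an adjusted p below 0.05 (limma, Benjamini-Hochberg over all genes kept). The 40th percentile itself lay between 6.19 and 6.42 on the iMEF arrays, so levels near 6 are close to background. The fl/fl array at 24 h stood farthest from the other 9, with a mean correlation of 0.942 over genes where the rest had 0.956 to 0.973. The 96 h arrays came next, at 0.956 in fl/fl and 0.961 in wt/wt iMEFs, and the fl/fl one had the narrowest spread of levels (SD 2.29, against 2.33 to 2.47). Fibroblast markers were at high levels, with a median of 10.07 to 11.08 on the arrays, and 17 of the 20 measured were over the percentile on all 10, whereas Fap and Lum were over it on none. Macrophage markers had a median of 6.06 to 6.59. Of the 22 measured, Adgre1, Aif1, Cd53, Lyz2, Mrc1 and Ptprc were under the percentile on all 10 arrays. C1qa, Cd68, Laptm5 and Tyrobp were over it on all 10. The percentile separates cell types poorly, since 12 of 16 epithelial and 12 of 18 skeletal muscle markers were also over it on all 10 arrays.

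Ubtf, the gene for UBF, was read first. In fl/fl iMEFs its level was 10.43 and 10.62 at 0 and 24 h and 10.42, 10.24 and 10.01 at 48, 72 and 96 h. The wt/wt line had 10.41 and 10.45, then 10.33, 10.17 and 9.49. The late change was -0.37 (SE 0.16, adjusted p = 0.38, limma), and the late arrays lay under the early ones in both lines, the wild-type one included. Whether the probe set lies in the deleted exons is not given in the sources used here, so this level checks nothing about the deletion.

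Among the genes that rose in both lines were genes of antiviral defence, of antigen presentation and of chemokine signalling. Interferons signal from the cell surface to a response element in the promoters of their target genes, and IRF7, itself induced in this way, drives further interferon transcription. The same cytokines raise the class I pathway, in which immunoproteasome subunits cut cytosolic proteins, the TAP transporter carries the peptides into the endoplasmic reticulum, and class I heavy chains present them at the surface. Fibroblasts express this pathway at a low level at rest.

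In all, 40 genes were called higher at the late times, which is 0.279% of the genes tested, and 0 were called lower (limma). At an unadjusted p under 0.05 the counts were 812 higher and 950 lower. In each line all 3 late arrays lay above both early arrays for each of the 40 genes. Over all genes kept, 393 (2.74%) showed that pattern upward and 482 (3.36%) downward. The median change of the 40 genes was 1.21 in fl/fl and 1.04 in wt/wt iMEFs, against -0.018 and 0.0069 over all genes kept. The number called depended on the arrays used. It was 4 without the 24 h arrays and 0 with 24 h counted as late. It was 196 without 48 h, 10 without 72 h and 111 without 96 h. It was 23 with the hour as a random block. With single arrays left out it was 33 without fl/fl 24 h, the array that stood farthest apart, and 8 without fl/fl 0 h, 21 without fl/fl 72 h, 80 without fl/fl 96 h, 18 without wt/wt 0 h, 15 without wt/wt 24 h, 83 without wt/wt 48 h and 25 without wt/wt 72 h. The change of all 40 genes stayed above 0 under the 25 alternatives, except that 5 of them were not tested under a filter at the 60th percentile. Where hours or arrays were left out this sign was fixed in advance. In each line every late array lay above both early ones, so no support is drawn from it. Apod, Ccl5 and Gbp3 were called under 24 of the alternatives, and Asah2, Btg2 and Dcp2, the genes called least often, under 8. Of the 40 genes, Ddx60, Trim12c and Vnn1 were over the percentile on the 6 late arrays and on no early one, and so entered the test through the late group. Their calls are counted in the 40 but are a description only.

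**Figure D1:**
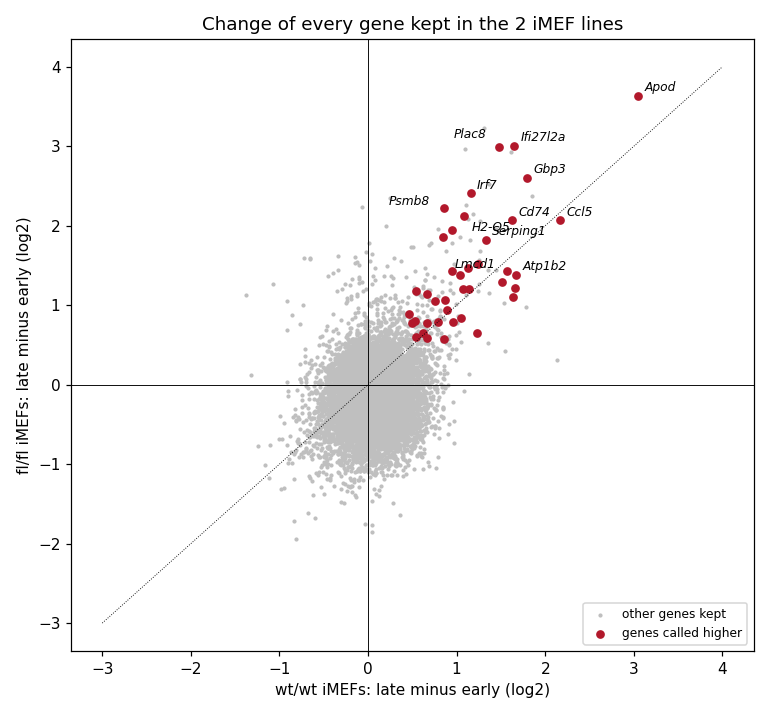
Late minus early change (log2) of each of 14331 genes in wt/wt iMEFs (x axis) and fl/fl iMEFs (y axis), with the 40 genes called higher in red, the 12 largest named, and a dotted line where the changes are equal. All 40 red points lie above 0 in both lines, and Apod lies farthest out, at 3.05 in wt/wt and 3.64 in fl/fl iMEFs.

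Apod rose most. It encodes apolipoprotein D, a secreted lipid carrier of the lipocalin family that is known to accumulate in growth-arrested fibroblasts. Its level in fl/fl iMEFs was 7.45 and 8.34 at 0 and 24 h and 11.73, 11.86 and 11.01 at 48, 72 and 96 h. Wild-type cells had 7.80 and 8.49, then 11.31, 11.42 and 10.84. The lowest late array was 2.67 above the highest early array in fl/fl and 2.36 above it in wt/wt cells. The change was 3.34 (SE 0.24, adjusted p = 0.00010, limma), which is 10.1-fold.

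Of the interferon-stimulated genes, 50 were kept and 2 were called, both higher, with a median change of 1.01 (1.17 in fl/fl and 0.78 in wt/wt iMEFs) beside -0.0040 over all genes. Without the 48 h arrays the median was 0.58 and 5 members were called. A positive change was seen for 49 of the 50, and Ifi27 had the value -0.31. The called members were Gbp3, a guanylate-binding protein of the interferon-induced GTPases, and Irf7. Gbp3 read 6.10 and 6.72 at 0 and 24 h and 9.02, 9.32 and 8.69 at 48, 72 and 96 h in fl/fl iMEFs. In wt/wt iMEFs it read 6.78 and 7.28, then 9.10, 8.80 and 8.56, so that the groups did not overlap in either line. Its change was 2.20 (SE 0.21, adjusted p = 0.0012, limma).

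Irf7 started from different levels in the lines. It read 9.96 and 10.45, then 12.72, 12.99 and 12.13 in fl/fl iMEFs. The wt/wt line read 11.36 and 11.63, then 12.71, 12.74 and 12.52. The late levels of the lines were close while the early level was lower in fl/fl cells, and the change was 1.78 (SE 0.25, adjusted p = 0.012, limma). A lower level at 0 h in fl/fl than in wt/wt iMEFs was found for 36 of the 40 genes. The share over all genes kept was not counted. A low fl/fl level at 0 h also enlarges the change by which these genes were called, so the count is a description only.

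The level of the list was uneven over the 3 late hours. The median level of its 52 genes in fl/fl iMEFs was 7.63 and 8.34 at 0 and 24 h, 10.75 at 48 h, 10.22 at 72 h and 8.56 at 96 h. In wt/wt iMEFs it was 8.73, 9.18, 10.72, 10.03 and 9.002. Both lines thus had their highest median at 48 h, and the wt/wt median at 96 h lay under that at 24 h. By gene, 44 of 50 in fl/fl and 48 of 50 in wt/wt iMEFs were highest at 48 h, and 49 and 47 were lower at 96 h than at 72 h. The same counts over all genes kept were not made. The 96 h arrays were, after fl/fl 24 h, those that correlated least with the rest. Members with large changes that were not called include Oas3, an oligoadenylate synthetase, at 2.27 (SE 0.45, adjusted p = 0.065), and Rsad2, which encodes viperin, at 2.11 (SE 0.59, adjusted p = 0.19).

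The response element was looked for in promoter sequences from RefSeq (GRCm38.p6), of which 24 of the 40 genes called had at least 1. The core searched was GAAANNGAAA on both strands, overlapping matches included, in the 250 bases before and 50 after each start. It was found for 3 of the 24 genes (12.5%), for 19 of 37 interferon-stimulated genes with a sequence (51.4%) and for 384 of all 11315 genes with one (3.39%). The called genes with a match were Gbp3, Ddx60, which encodes an RNA helicase of antiviral sensing, and Trim12c, a tripartite motif gene. Ddx60 and Trim12c passed the filter only through the late arrays, where they are high. The share of 12.5% thus rests largely on genes selected in that way, and nothing is drawn from its distance to 3.39%. The sequences of the 3 genes are given for the 250 bases before the start, 5′ to 3′ on the strand of the gene, with matches to the core in capitals.
Gbp3, chr3:142559794-142560043, plus strand: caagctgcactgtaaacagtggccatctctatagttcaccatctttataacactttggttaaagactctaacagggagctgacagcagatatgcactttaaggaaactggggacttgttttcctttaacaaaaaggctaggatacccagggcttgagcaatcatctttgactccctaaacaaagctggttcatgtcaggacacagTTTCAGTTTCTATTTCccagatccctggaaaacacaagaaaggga
Ddx60, chr8:61927837-61928086, plus strand: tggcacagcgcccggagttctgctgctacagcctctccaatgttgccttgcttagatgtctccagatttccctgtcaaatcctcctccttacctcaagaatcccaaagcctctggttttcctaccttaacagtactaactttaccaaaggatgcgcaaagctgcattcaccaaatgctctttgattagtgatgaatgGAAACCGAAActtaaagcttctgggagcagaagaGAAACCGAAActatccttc
Trim12c, chr7:104353350-104353599, minus strand: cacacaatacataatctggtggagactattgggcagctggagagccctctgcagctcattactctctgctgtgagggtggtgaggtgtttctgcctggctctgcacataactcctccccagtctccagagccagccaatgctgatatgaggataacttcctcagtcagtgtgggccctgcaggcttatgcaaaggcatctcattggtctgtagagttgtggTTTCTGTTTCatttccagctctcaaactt
The matches began 45 and 39 bases before the start in Gbp3, where they overlap, 53 and 19 bases before it in Ddx60 and 29 bases before it in Trim12c. The same 10 letters stand at both places in Ddx60. A match is a sequence only, and binding was not measured.

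Ddx60 and Trim12c were not above the percentile at the early times. Ddx60 read 5.27 and 5.58, then 6.92, 6.94 and 6.57 in fl/fl iMEFs, and 5.93 and 6.09, then 7.61, 6.84 and 6.68 in wt/wt iMEFs. With each early level set to the percentile of its array, Ddx60 was at least 1.55-fold and Trim12c at least 1.51-fold higher. Both passed the filter only through the late arrays, so these folds are a description and no p-value is given. The median change was 1.07 for the 19 interferon-stimulated genes with the core and 0.92 for the 18 with a sequence and no match.

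Ifi27l2a, an interferon-induced gene outside that list, rose by 2.33 (SE 0.29, adjusted p = 0.0070, limma). It read 7.26 and 7.56, then 10.53, 10.98 and 9.74 in fl/fl iMEFs, and 8.67 and 8.42, then 10.35, 10.39 and 9.84 in wt/wt iMEFs. Early and late arrays did not overlap in either line.

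Class I antigen presentation had more called members. Of 20 genes kept, 6 were called higher and 0 lower, 17 had a positive change, and the median change was 0.56 (0.62 in fl/fl and 0.56 in wt/wt iMEFs). The 6 were the immunoproteasome subunits Psmb8 and Psmb9, the peptide transporter subunit Tap1 and the class I heavy chains H2-M3, H2-Q4 and H2-T10. Psmb8 read 8.16 and 8.05, then 10.67, 10.65 and 9.68 in fl/fl iMEFs, and 9.90 and 9.91, then 10.86, 10.79 and 10.63 in wt/wt iMEFs. Its early levels were closely alike within each line and stood apart between the lines. The change of Psmb8 was 1.54 (SE 0.27, adjusted p = 0.035), that of Psmb9 1.45 (SE 0.20, adjusted p = 0.012) and that of Tap1 1.35 (SE 0.22, adjusted p = 0.023), all from limma. Psmb8 was called under 12 of the 25 alternatives and lost its call, among others, with the hour as a random block and under mRNA median scaling. Tap1 was called under 14 and Psmb9 under 20. Psmb9 and Tap1 are neighbours transcribed in opposite directions, and their windows in the promoter table overlap.

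H2-M3, a class I chain known for presenting formylated peptides, read 7.91 and 7.69, then 9.16, 9.44 and 9.22 in fl/fl iMEFs. The wt/wt line read 8.66 and 8.51, then 9.54, 9.63 and 9.97. The change was 1.30 (SE 0.13, adjusted p = 0.0012, limma). H2-Q4 changed by 1.19, H2-T10 by 1.139 and, outside the list, H2-Q5 by 1.60 and H2-K2 by 1.41. Several H2 genes are close copies whose probes may share transcripts, so which of those moved is uncertain. B2m, the light chain of all class I molecules, was at 12.96 early and 13.42 late and was not called (0.46, SE 0.097, adjusted p = 0.078). Tapbp, which encodes tapasin, had a change of 0.83 (adjusted p = 0.058), and the general chaperone genes Canx, Calr and Pdia3 had the values -0.053, -0.17 and -0.32.

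Cd74, the invariant chain that escorts class II molecules, rose as well. It read 7.15 and 7.55, then 9.50, 10.07 and 8.68 in fl/fl iMEFs, and 6.44 and 6.48, then 7.52, 8.33 and 8.42 in wt/wt iMEFs. In this gene the fl/fl line was the higher one at every hour. The change was 1.85 (SE 0.26, adjusted p = 0.012, limma).

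Of 25 chemokine and cytokine genes kept, 3 were called, all higher, and the list's median change was 0.18 (0.39 in fl/fl and -0.019 in wt/wt iMEFs). Ccl5 encodes RANTES, which attracts T cells and monocytes. It read 10.61 and 11.38, then 12.96, 13.33 and 12.91 in fl/fl iMEFs. It read 10.94 and 11.24, then 13.13, 13.36 and 13.29 in wt/wt iMEFs. The change was 2.12 (SE 0.16, adjusted p = 0.00010, limma), which is 4.34-fold, and the lines differed in it by -0.10 (SE 0.32, adjusted p = 0.91). Ccl20, a ligand of CCR6, changed by 1.18 (SE 0.20) and Cxcl11, a ligand of CXCR3, by 0.72 (SE 0.12), from low early means of 6.64 and 6.23. Cxcl11 was over the percentile on 1 of the 4 early arrays. Among 23 NF-kB subunits and feedback genes none was called, and Icam1 and Ptgs2 had the largest values, 0.80 (adjusted p = 0.082) and 0.52 (adjusted p = 0.15). Of 17 complement and acute phase genes, Serping1, the C1 inhibitor, was the called one. It changed by 1.58 (SE 0.23, adjusted p = 0.012, limma), from 7.99 and 7.44 to 9.64, 10.12 and 8.86 in fl/fl and from 9.73 and 9.30 to 10.71, 10.83 and 10.997 in wt/wt iMEFs.

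**Figure D2:**
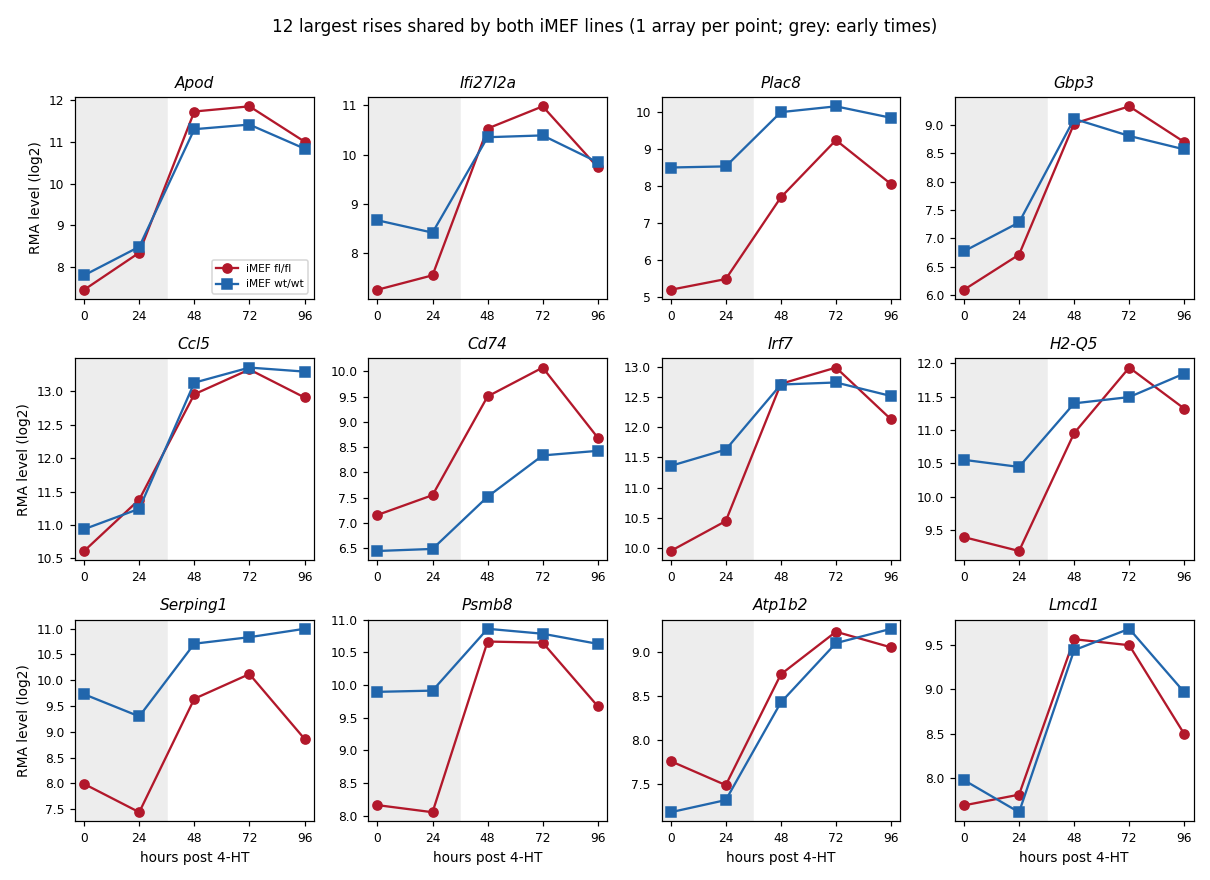
RMA level (log2, y axes scaled by gene) against hours post 4-HT for the 12 largest rises shared by both lines, in fl/fl (red circles) and wt/wt iMEFs (blue squares), 1 array per point, with the early times shaded. In all 12 panels the points at 48, 72 and 96 h lie above those at 0 and 24 h of the same line, which the rule for a shared rise required.

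Other large rises were in genes of varied function. Plac8, a small cysteine-rich protein gene, was under the percentile early in fl/fl iMEFs, at 5.20 and 5.49, and read 7.70, 9.24 and 8.05 later. In wt/wt iMEFs it was already at 8.50 and 8.53 and read 10.00, 10.16 and 9.85 later. Atp1b2, a beta subunit of the sodium-potassium pump, read 7.76 and 7.49, then 8.74, 9.22 and 9.05 in fl/fl iMEFs, and 7.18 and 7.32, then 8.43, 9.10 and 9.26 in wt/wt iMEFs. Lmcd1, a LIM domain protein gene, read 7.69 and 7.81, then 9.57, 9.50 and 8.50, and 7.98 and 7.62, then 9.44, 9.68 and 8.97. Plac8 was at least 3.46-fold higher over both lines, with early levels under the percentile set to it (adjusted p = 0.013 on the measured levels, limma). The changes were 1.53 for Atp1b2 (SE 0.17, adjusted p = 0.0029) and 1.499 for Lmcd1 (SE 0.21, adjusted p = 0.012), both from limma.

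Of 54 lysosome and autophagy genes 2 were called, both higher, with a median change of 0.057. Cd68, a lysosomal membrane glycoprotein abundant in macrophages, read 8.32 and 8.27, then 9.31, 10.07 and 10.05 in fl/fl iMEFs. Wild-type cells read 8.78 and 8.62, then 9.31, 10.16 and 10.35. Its change was 1.38 (SE 0.21, adjusted p = 0.018, limma), and that of Npc2, which carries cholesterol out of lysosomes, was 0.62 (SE 0.10, adjusted p = 0.024, limma). Cd68 was also the called one of 12 macrophage markers kept, whose median change was -0.058. Of the markers measured, Adgre1 and Ptprc were under the percentile on every iMEF array, and C1qa, Laptm5 and Tyrobp were over it on every one. The part of macrophages in the result was not tested.

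Of 38 AP-1 and immediate early genes, Egr1, a serum-induced zinc finger factor, was higher by 0.86 (SE 0.14, adjusted p = 0.028) and Btg2, an antiproliferative gene that is also a p53 target, by 0.63 (SE 0.11, adjusted p = 0.035), both from limma. Egr1 read 10.56 and 10.24, then 11.44, 11.56 and 11.75 in fl/fl iMEFs, and 10.62 and 10.59, then 11.16, 11.21 and 11.05 in wt/wt iMEFs. These 2 genes are also the called members among 21 ERK feedback genes (Egr1), 33 p53 targets and 23 genes of CDK inhibitors, G1 cyclins and the Rb family (Btg2). Txnip, which binds thioredoxin and restrains glucose uptake, was the called one of 28 FOXO and fasting genes. It read 9.38 and 8.83, then 10.20, 10.81 and 9.96 in fl/fl and 9.28 and 9.03, then 10.26, 10.91 and 11.29 in wt/wt iMEFs, a change of 1.44 (SE 0.23, adjusted p = 0.021, limma). Nkd2, an inhibitor of WNT signalling, was the called one of 39 WNT pathway genes, at 0.87 (SE 0.12). The remaining called genes were Pla1a, Vnn1, Rnd1, Enpp5, Banp, Etnk1, 1700007K13Rik, Anks1b, Dcp2, Fam126a, Zbtb20 and Asah2, with changes between 0.57 (Asah2) and 1.37 (Pla1a). Zbtb20 was the only called gene with 2 probe sets, and its change of 0.63 is that of the brighter one. With both averaged, its change was 0.28 and the call was lost (adjusted p = 0.48, limma), so its rise depends on the probe set read.

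No gene was called in the other lists. Medians were lowest for cholesterol synthesis and SREBP targets (-0.24 over 33 genes), fibroblast markers (-0.23 over 18), ribosome biogenesis factors (-0.17 over 100), DNA replication (-0.17 over 61), mitosis (-0.16 over 56) and oxidative phosphorylation (-0.15 over 63). For mitosis and replication the lines had medians of opposite sign, at -0.51 and -0.41 in fl/fl against 0.19 and 0.076 in wt/wt iMEFs. Against 0 h alone, without the fl/fl 24 h array that stood apart, the fl/fl medians were -0.22 and -0.27. Small nucleolar RNAs had a median of 1.23 in fl/fl and -0.13 in wt/wt iMEFs, and of 0.62 and -0.48 against 0 h alone. Cytoplasmic ribosomal protein genes lay at 0.0080 over 56 genes. Markers of endothelial, epithelial, muscle, neural, fat and cartilage or bone cells had medians between -0.078 and 0.11, with 10 to 14 genes kept in each.

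**Figure D3:**
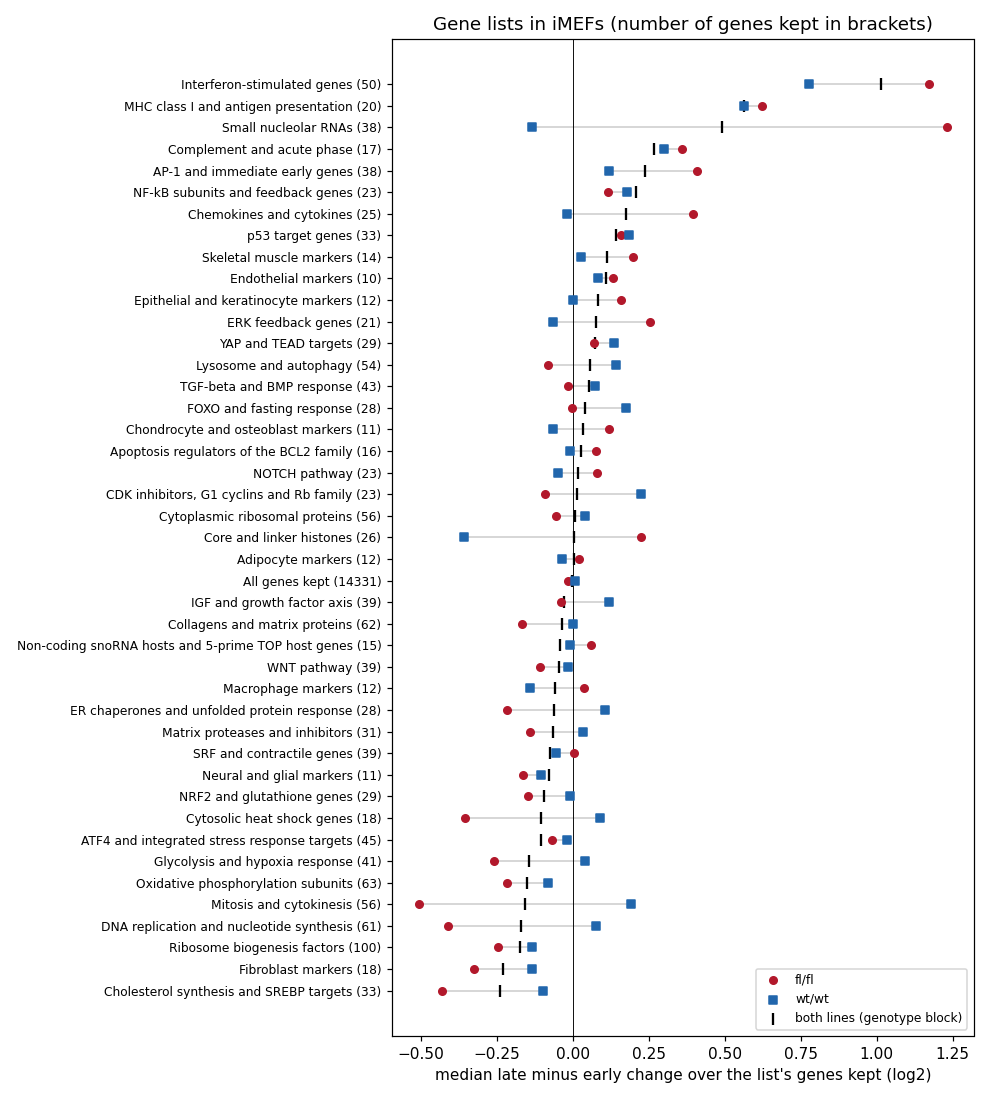
Median late minus early change (log2, x axis) over the genes kept of each of 43 lists, of which 1 row is all genes kept, in fl/fl iMEFs (red circles), wt/wt iMEFs (blue squares) and both lines with the genotype block (black ticks). Interferon-stimulated genes lie highest for both lines together, at 1.01, and cholesterol synthesis lowest, at -0.24.

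Falls appeared when the 48 h arrays were left out of the late group. Then 363 genes (2.53%) were lower and 196 (1.37%) higher, and all 40 genes of the full comparison were among the latter. With hours as a linear term over all 10 arrays, 702 genes were lower and 194 higher. In fl/fl iMEFs 305 of the 363 genes were lowest at 96 h and in wt/wt iMEFs 348 were. These genes were selected as lower at 72 and 96 h, so a lowest level at 1 of these hours was nearly fixed in advance. The 96 h arrays were also those, after fl/fl 24 h, that correlated least with the rest, and the part of this in the falls was not tested. At 48 h 136 of the 363 genes were above both early arrays in wt/wt and 14 in fl/fl iMEFs. The early fl/fl arrays include the 24 h one that stood apart, so these counts do not measure a difference between the lines. Shares over all genes kept were not counted for the lowest hour or for 48 h. The genes named from this comparison were chosen with their values seen.

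S100a4, a calcium-binding protein used as a fibroblast marker, read 11.14 and 11.70, then 11.14, 9.65 and 8.45 in fl/fl iMEFs and 10.40 and 10.09, then 10.27, 9.76 and 8.91 in wt/wt iMEFs. It stayed at the early level at 48 h in both lines and was lowest at 96 h, with a change of -1.64 (SE 0.34, adjusted p = 0.029, limma without 48 h). Angptl7, a secreted angiopoietin-like protein gene, read 11.15 and 11.29, then 10.26, 9.29 and 8.28 in fl/fl iMEFs and 9.74 and 9.73, then 9.47, 9.10 and 8.17 in wt/wt iMEFs (-1.76, SE 0.31, adjusted p = 0.017). Pcolce2, a procollagen processing enhancer, changed by -1.41 (SE 0.17, adjusted p = 0.0051), S1pr3, a receptor of sphingosine 1-phosphate, by -1.40 (SE 0.18, adjusted p = 0.0059), and Me2, the mitochondrial malic enzyme, by -1.73 (SE 0.21, adjusted p = 0.0051), by the same fit. Without 48 h, 3 of 18 fibroblast markers and 5 of 62 collagen and matrix genes were lower, and 0 and 1 were higher.

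Of 33 cholesterol synthesis and SREBP target genes 6 were lower and 0 higher without 48 h, with a median of -0.47. Lss, lanosterol synthase, read 9.99 and 10.45, then 9.95, 9.10 and 8.57 in fl/fl iMEFs and 9.83 and 9.88, then 9.92, 9.43 and 8.66 in wt/wt iMEFs (-1.10, SE 0.21, adjusted p = 0.022, limma without 48 h). Of 100 ribosome biogenesis factors 9 were lower and 0 higher. Polr1b, a core subunit of RNA polymerase I, read 10.15 and 10.18, then 9.93, 9.46 and 8.83 in fl/fl iMEFs and 10.18 and 10.11, then 9.92, 9.41 and 8.37 in wt/wt iMEFs (-1.14, SE 0.21, adjusted p = 0.022). The level of Polr1b was nearly the same in the wild-type and the floxed line at each hour up to 72 h.

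Ddit3 and Nupr1, stress genes of the ATF4 list, climbed from 24 h to the end in both lines. Ddit3, which encodes CHOP, read 8.48, 8.24, 9.21, 10.71 and 11.41 in fl/fl and 8.93, 8.68, 9.72, 10.47 and 11.05 in wt/wt iMEFs at 0, 24, 48, 72 and 96 h. Nupr1 read 9.94, 9.91, 10.38, 11.67 and 12.04 in fl/fl and 10.32, 10.11, 11.003, 11.63 and 12.06 in wt/wt iMEFs. With the 3 late hours pooled neither was called (1.85, SE 0.37, adjusted p = 0.065, and 1.40, SE 0.29, adjusted p = 0.070, limma). Without 48 h both were, at 2.33 (SE 0.21, adjusted p = 0.00056) and 1.78 (SE 0.15, adjusted p = 0.00023, limma). The ATF4 and integrated stress response list as a whole had a median of -0.12 without 48 h, with 3 of 45 genes higher and 1 lower.

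**Figure D4:**
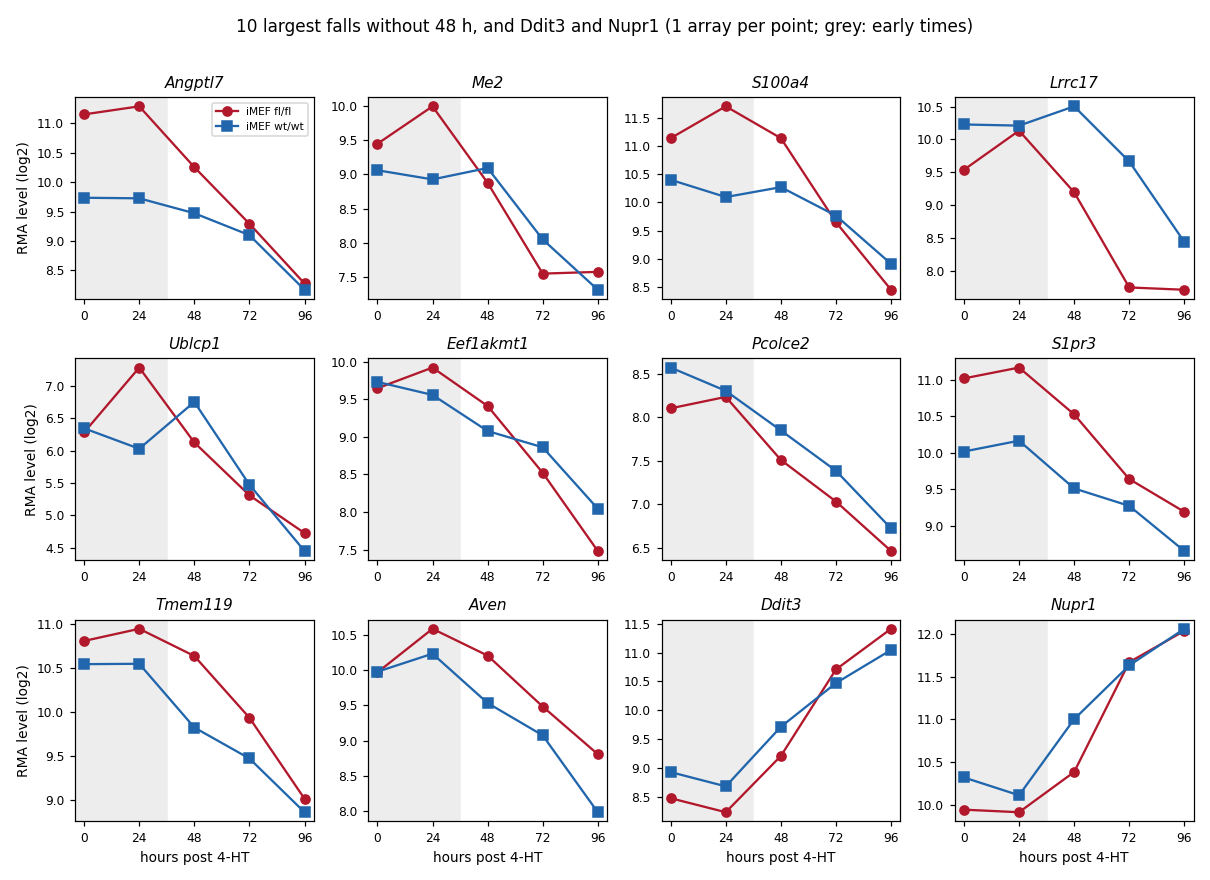
RMA level (log2, y axes scaled by gene) against hours post 4-HT for the 10 largest falls found without 48 h and for Ddit3 and Nupr1, in fl/fl (red circles) and wt/wt iMEFs (blue squares), 1 array per point, with the early times shaded. The levels of the 10 genes at 72 and 96 h lie under both early points in each line, and Ddit3 and Nupr1 are highest at 96 h.

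Each line was also tested by itself within 1 model. In fl/fl iMEFs 24 genes (0.167%) were called higher and 5 lower, and in wt/wt iMEFs 2 (0.014%) higher and 0 lower. The 2 were Apod and Ccl5, which were called in both lines. The 5 lower ones in fl/fl iMEFs were Syt11 (-1.32), Chd3 (-1.27), Gdpd1 (-0.99), Coch (-0.94) and Hlf (-0.89), with changes of 0.062, -0.19, 0.32, -0.063 and -0.18 in wt/wt iMEFs. The difference between the lines was tested directly, and 0 genes passed (1646 at an unadjusted p under 0.05, limma). Of the 40 shared genes, 29 had the larger change in fl/fl iMEFs, a count without the share over all genes kept, which was not counted. The difference was 1.37 for Psmb8 (SE 0.36), 1.36 for Ifi27l2a (SE 0.43) and 1.25 for Irf7 (SE 0.34), each with an adjusted p of 0.40. The largest differences among all genes were in the small RNAs Mir18 (2.51), Mir19a (2.33) and Snord118 (2.32), at the same adjusted p.

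The time course of iMEFs was then set beside that of the primary MEFs, which had the same genotypes, pulse and harvest times but no SV40 antigens, in 1 model over all 20 arrays and 14965 genes. The late change was higher in iMEFs than in MEFs for 308 genes (2.06%) and lower for 122 (0.815%). Genes of cell division were among the first set, far under their early level in MEFs and closer to it in iMEFs. Of 60 mitosis and cytokinesis genes 43 differed, with a median change of -0.15 in iMEFs and -1.98 in MEFs. The same was found for 32 of 61 replication genes (-0.17 and -1.15) and 17 of 27 histone genes (0.0038 and -1.18). Within iMEFs the histone medians had opposite signs, 0.22 in the fl/fl and -0.36 in the wt/wt line, over the 26 histone genes kept there. Plk1, a mitotic kinase, read 11.95, 11.81, 11.90, 11.71 and 11.28 in fl/fl iMEFs over the 5 times and 11.83, 11.98, 11.88, 11.86 and 11.68 in wt/wt iMEFs. In MEFs it went from 11.29 to 6.96 (fl/fl) and from 11.38 to 8.86 (wt/wt) between 0 and 96 h.

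Interferon-stimulated genes had about the same median change in both cell types, 0.99 in iMEFs and 1.07 in MEFs, and 1 of 52 differed, with the lower change in iMEFs. Irf7 differed by 0.23 (SE 0.31, adjusted p = 0.79) and Gbp3 by 0.30 (SE 0.42, adjusted p = 0.80). For 36 of the 40 iMEF genes the change in MEFs was above 0, with a median of 0.78. Over all 14965 genes it was above 0 for 7608. Of the 40 genes 12 differed between the cell types, all with the larger change in iMEFs. Since these genes were chosen by their change in iMEFs, that count is a description. The 12 include Apod (difference 1.997, SE 0.31), Cd74 (1.73, SE 0.32), Lmcd1 (1.62, SE 0.26), Atp1b2 (1.57, SE 0.20), Cd68 (1.37, SE 0.34) and Ccl5 (1.001, SE 0.23). Apod stood at 11.11 in fl/fl and 10.65 in wt/wt MEFs at 0 h already, where iMEFs had 7.45 and 7.80. Mmp13, Saa3 and Ccl8 were at the level of background in iMEFs with values between 5.42 and 6.60, over the percentile on 3, 1 and 3 of the 10 arrays, so no change can be read from them there.

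**Figure D5:**
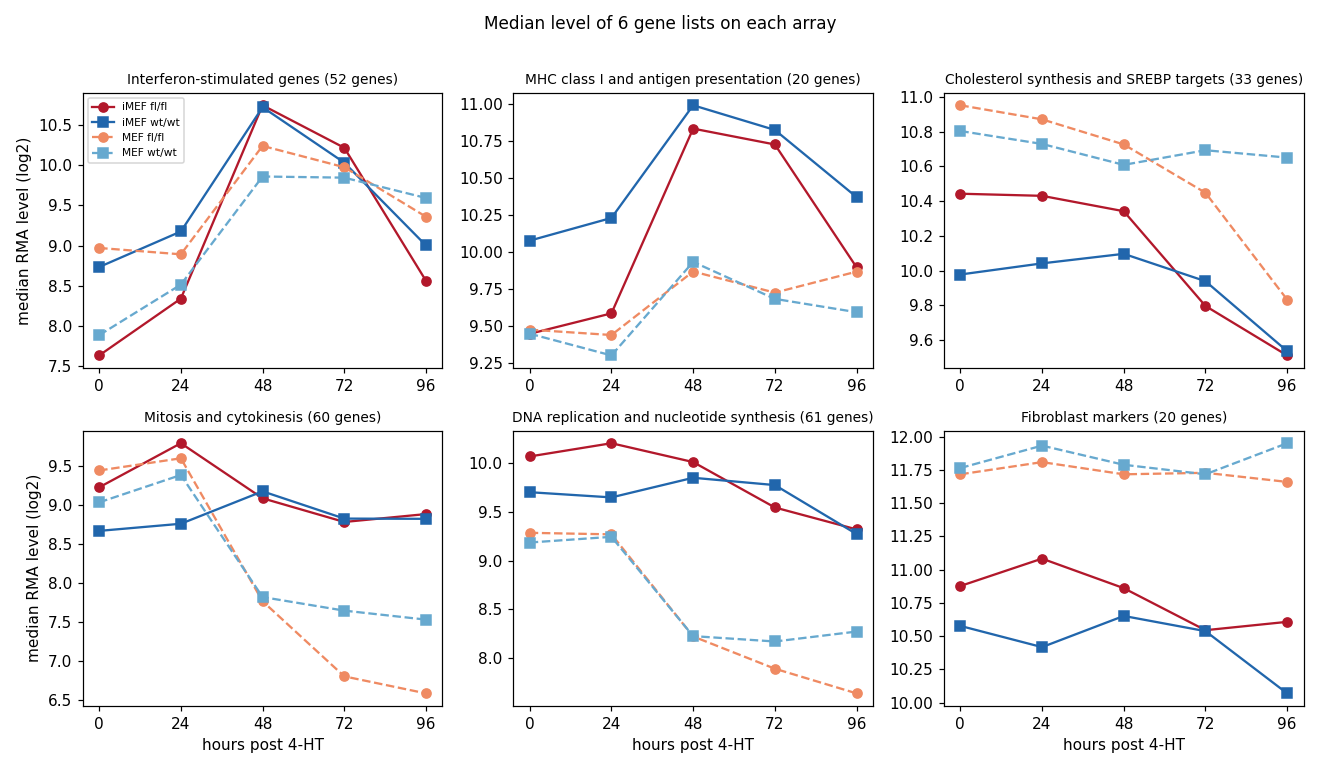
Median RMA level (log2, y axes scaled by list) of 6 gene lists on each array against hours post 4-HT, in iMEFs (solid lines) and MEFs (dashed lines), fl/fl in red shades and wt/wt in blue shades. Interferon-stimulated genes are highest at 48 h in all 4 lines, and mitosis genes are lower from 48 h on in MEFs but stay between 8.66 and 9.79 in iMEFs.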

How the data were processed

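Total RNA of 20 samples was hybridised to Affymetrix whole-transcript arrays, and the 10 iMEF arrays are used here, with the 10 MEF arrays for 1 comparison. The deposited values are log2 expression levels, 1 per probe set and array, which the authors made by RMA-sketch with Affymetrix Power Tools 1.14.4. RMA normalizes levels between arrays, so a shift common to most genes may not show. The study's methods name another array version than the annotation used here. Of 35556 probe sets, 21789 carry 1 gene symbol, 1621 several and 12146 are not listed. Each of 19938 genes was read from its brightest probe set by mean iMEF level, and those over the 40th percentile on at least 4 arrays were kept.

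Fits were made with limma 3.58.1 in R 4.3.3 (lmFit, eBayes, two-sided, Benjamini-Hochberg, threshold 0.05) and tested on simulated data. The genotype block model has 7 residual degrees of freedom, the model with a late term per line 6 and the 20-array model 14. Lists carry no test. Promoters on chromosome 18 were not used. Members, gene lists and tests were chosen with earlier results of these data known. A change counted as shared when it was called and all late arrays of each line lay beyond both early ones. Genes named are the 12 largest shared rises and falls (without small RNAs or predicted genes), up to 4 called members of each of 42 lists (otherwise up to 2, as values), the largest differences between lines and cell types, and Ubtf. The number of arrays limits the precision. The alternatives tried were other scalings, filters, times, arrays, blocks and empirical Bayes settings. List medians against 0 h alone and folds against the percentile, which give lower bounds, were added after the values were seen.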

Additional observations from a re-analysis of the deposited data

Results flagged for a closer look

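The late change differed between iMEFs and primary MEFs, by a direct test in 1 limma model of 20 arrays, for 308 genes with the higher change in iMEFs and 122 with the lower. The largest differences were in the histone genes H2ac4 (3.002, adjusted p = 0.00040) and H2bc3 (2.97, adjusted p = 0.00039) and in Plk1 (2.63, adjusted p = 0.0011), which changed by -2.96, -2.75 and -2.80 in MEFs and by 0.045, 0.22 and -0.18 in iMEFs. The iMEF lines went opposite ways for the histone genes, H2ac4 by 0.35 in fl/fl and -0.26 in wt/wt, and H2bc3 by 0.54 and -0.10. Core histone genes are near-identical copies, so which of them moved is uncertain. For the collagenase gene Mmp13, the acute phase gene Saa3 and the chemokine gene Ccl8 the model gave differences of -2.80, -2.77 and -2.63. These genes changed by 2.78, 2.79 and 3.27 in MEFs but were over the percentile on only 3, 1 and 3 of the 10 iMEF arrays and entered the test through the MEF arrays, so the values set MEFs against background and do not measure a change in iMEFs.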

How the results depend on the processing

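The main limit is the number of arrays. With 1 array for each line and hour, the scatter between hours stands in for replicate error. The count of 40 genes called higher became 4 without 24 h, 0 with 24 h counted as late, 196 without 48 h, 10 without 72 h, 111 without 96 h, 23 with the hour as a random block (correlation 0.17), 194 with hours as a linear term and 21 with no genotype block. Leaving out single arrays gave 8 to 83. The count of shared rises was the same as this in each case save 195 without 48 h. The count of 0 genes called lower became 2 with quantile normalization over mRNA probe sets, 363 without 48 h (362 shared), 3 without 96 h, 702 with hours as a linear term and 0 to 22 with single arrays left out. With each line fitted alone, the counts were 11 higher and 0 lower in fl/fl and 9 higher in wt/wt iMEFs. Other scalings, filters, probe set rules and empirical Bayes settings kept each count of genes within 1.5 times its value, except the quantile normalization named above. Over these alternatives the 12 largest rises lost their call in 52 cases and none turned its direction. Where hours or arrays were left out the direction could not turn, because early and late levels of these genes did not overlap. The median fl/fl change of the called genes was 1.62 at 72 h alone, against 1.21 over the late hours.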

Other observations

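Small nucleolar RNAs, which guide the modification of ribosomal RNA, had a lower median level at 24 h than at 0 h in both lines. From 48 h on their median was higher in fl/fl than in wt/wt iMEFs. Over 38 of these RNAs, the median level in fl/fl iMEFs was 9.08, 7.90, 9.20, 9.94 and 9.96 at 0, 24, 48, 72 and 96 h. In wt/wt iMEFs it was 9.62, 8.82, 8.78, 8.64 and 9.44. None was called in the comparison of late with early, and 0 genes passed the direct test of the difference between lines. The fl/fl array at 24 h, which correlated least with the others, held the lowest of these medians.

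Sox9, the cartilage factor, lay lower at all late hours in both lines and missed the threshold (-0.56, SE 0.11, adjusted p = 0.062, limma). It read 9.79 and 9.65, then 9.06, 8.95 and 8.90 in fl/fl iMEFs and 9.16 and 9.05, then 8.85, 8.69 and 8.65 in wt/wt iMEFs.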
